A study of Danio rerio with 8 samples.

Results

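Genes that fold, modify and clear proteins in the endoplasmic reticulum (ER), with the genes that sense and relay its stress, were followed in the distal trunk of zebrafish larvae. The members were listed by name, with earlier results of these data known: 41 zebrafish symbols, looked up in any case or in capitals without the paralog letter. Of these, 37 symbols led to 37 of the 24345 gene identifiers in the table, and all 37 passed the filter of a mean of 10 or more normalized counts over the 8 samples. Their means over the 8 samples ran from 13.8 (pdia2) to 45042 (hsp90b1). The symbols hspa5, pdia3, p4hb and atf4a were not matched and are not analysed here. The symbols dnajb9a and dnajb9b both led to the shared symbol DNAJB9, whose 2 identifiers are given by number since the name table does not say which paralog each one is.

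Secreted and membrane proteins enter the ER through the Sec61 channel. There Hsp70 and Hsp90 type chaperones, lectin chaperones and protein disulfide isomerases fold them, and proteins that fail are drawn back across the membrane and degraded. When unfolded proteins build up, the sensors IRE1, PERK and ATF6 start the unfolded protein response. IRE1 splices the mRNA of the transcription factor XBP1, ATF6 is cut free to become a factor itself, and PERK slows translation while favouring ATF4 and, downstream, CHOP. Matrix-secreting cells of fin folds, cartilage and notochord depend on this machinery for the export of collagens.

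Larvae of the Tropical 5D wild-type line were kept from 6 to 8 hours post fertilization (hpf) onward in medium holding 12 µM BkF (benzo[k]fluoranthene, a combustion-derived hydrocarbon with several fused rings that binds the aryl hydrocarbon receptor) or, as control, 1% DMSO. Trunk tissue cut at the gap in the pigment, near the tail base, was sampled at 48, 60, 72 and 96 hpf, which gives 8 groups. Each group has 1 deposited value per gene, the authors' mean over 4 biological replicates of 50 pooled animals. The comparison of BkF with control asks which transcripts differ while an extra fin forms in this region.

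The 8 samples summed to 87750209 to 89533865 normalized counts in controls and 76456319 to 78634021 in BkF, and the read depth behind them is unknown. Fin fold genes were plentiful in every sample, at a summed level of 3310936 to 3886135 in controls and 1537790.1 to 2073130.2 in BkF, as were skeletal muscle genes (209846 to 309189.8 and 162746 to 471050.4). Liver markers, which the cut should leave out, summed to 256 to 471 in controls but to 2319 and 1075 in BkF at 48 and 60 hpf and to 188 and 136 in BkF at 72 and 96 hpf. Of the 9 liver markers tested, 8 were at least 2-fold higher in BkF at 48 hpf, beside 3.64% of all genes. At 96 hpf 1 was at least 2-fold higher, beside 5.29% of all genes, and 4 were at least 2-fold lower. The liver gene fabp10a was low throughout, at 3.54 to 7.84 in BkF and 8.65 to 15.2 in controls. Since replicate values were not analysed here, errors below (±) are the SD, with n = 4 times, of the log2 BkF/control ratio. Log2 ratios are of normalized counts plus 1.

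Over the 4 time points 21 of the 37 ER genes rose in BkF, 3 fell and 13 did not pass (limma, each time point a block, adjusted p under 0.05 by Benjamini-Hochberg over the 21950 genes tested). Among all genes tested, 16.5% were called higher and 17.4% lower, against 56.8% and 8.11% of the ER genes. The ER genes were chosen with earlier results of these data known, so this contrast is not an independent test. The median effect of the ER genes was 0.40 (log2), and that of all genes was -0.005. All 5 measured chaperones and 7 of 8 co-chaperones rose, the sensors ern1 and eif2ak3 did not pass, and the 3 genes that fell were derl3, ero1a and sec61g. In 18 ER genes all 4 BkF values lay above all 4 control values, which held for 14.6% of all genes. In 2 of the 37 all 4 lay below, which held for 3039 of the 21950 genes tested. The ratio was above 0 at every time point in 24 ER genes, a pattern seen in 26.2% of all genes. The ER genes made up 0.297 to 0.364% of all normalized counts in controls and 0.437 to 0.544% in BkF, where the totals were lower. Their sums differed less, with 325339.2 in control and 343748.5 in BkF at 48 hpf, and 279147.7 and 426004.2 at 96 hpf. In bulk tissue more cells that make a transcript and more transcript per cell cannot be told apart.

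**Figure D1:**
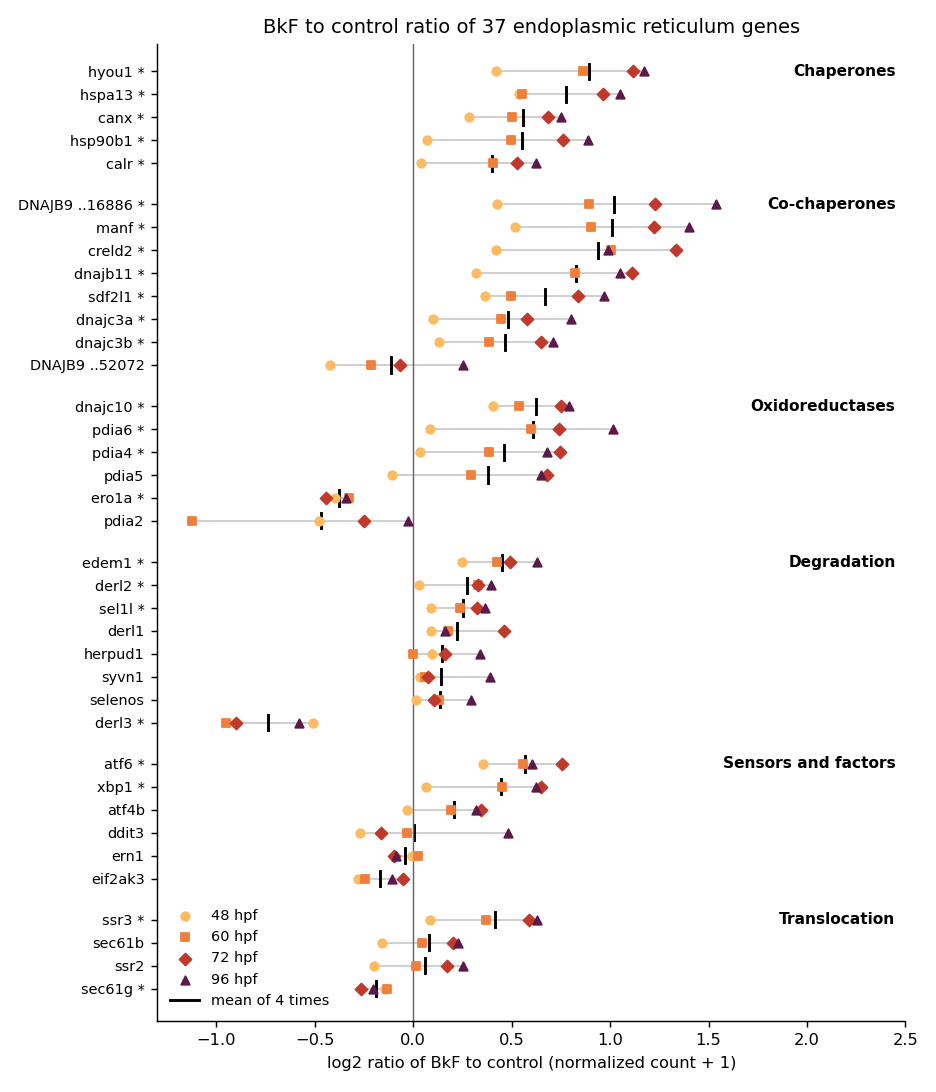
Log2 ratio of BkF to control for each of the 37 genes (rows, grouped by role) at 48, 60, 72 and 96 hpf (coloured symbols), with the mean over the 4 times as a black bar. An asterisk marks genes past the limma threshold, and DNAJB9 is shown with the last digits of its identifier. All 5 chaperones and 7 of the 8 co-chaperones lie to the right of 0 at every time, with the 48 hpf symbol leftmost in most rows.

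All 5 chaperones of the ER lumen and membrane that were measured among the members rose, beside 16.5% of all genes (hspa5 was not matched). The nucleotide exchange factor gene hyou1, an Hsp70 relative that works with BiP, stood at 9464, 9176, 8513 and 9265 normalized counts in controls at 48, 60, 72 and 96 hpf and at 12649.8, 16666, 18469.6 and 20911 in BkF. The groups did not overlap, and the BkF values climbed from one time point to the next while the controls stayed nearly flat. The effect was 0.89 ± 0.34 (log2, limma adjusted p = 0.00453). The Hsp70 relative hspa13 had 753, 756, 649.9 and 720.4 in controls and 1094, 1107, 1268 and 1490.1 in BkF (0.78 ± 0.27, limma adjusted p = 0.00428). Its BkF values again all exceeded its controls, and its ratio was already 0.54 at 48 hpf, the highest of all 37 genes at that time. The Hsp90 of the ER, hsp90b1, had 38149.6, 35784, 34149.8 and 36413 in controls and 40078, 50426, 57967 and 67369.5 in BkF. It started almost level at 48 hpf, where the fold was 1.05, and reached 1.85-fold at 96 hpf (0.55 ± 0.36, limma adjusted p = 0.0261).

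The lectin chaperones hold glycoproteins while they fold. The membrane-bound canx had 33430.5, 29858, 27919 and 30559 in controls and 40709.6, 42269, 44898 and 51484 in BkF (0.56 ± 0.21, limma adjusted p = 0.00646), and its soluble relative calr had 16360.1, 13178, 12628 and 13379 and 16786, 17441, 18200.1 and 20595 (0.40 ± 0.26, limma adjusted p = 0.0277). In both the groups did not overlap, although calr at 48 hpf lay close to its control. The calls of hsp90b1 and calr were lost when 60, 72 or 96 hpf was left out, with effects of 0.57, 0.48 and 0.44 for hsp90b1 and 0.40, 0.35 and 0.32 for calr.

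Of co-chaperones and cofactors 7 of 8 rose (87.5%, beside 16.5% of all genes), with a median effect of 0.75. One of the DNAJB9 identifiers (ENSDARG00000016886), a J-domain co-chaperone gene that is a target of XBP1 in mammals, stood at 560.4, 532, 537 and 590.2 in controls and 753, 989, 1259.8 and 1716 in BkF. The controls hardly moved, whereas BkF climbed at each step between 48 and 96 hpf, and the fold grew from 1.34 to 2.91 (1.02 ± 0.48, limma adjusted p = 0.00834). The other DNAJB9 identifier (ENSDARG00000052072) had 575, 613, 495 and 528 and 429, 528, 472 and 629.5, with overlapping groups, and did not pass (-0.11 ± 0.28, limma adjusted p = 0.5). Whether these identifiers differ in their response was not tested.

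The secreted ER factor gene manf, whose product binds BiP, had 3249, 2673, 2243 and 2345 in controls and 4643, 5002, 5242 and 6186 in BkF. Its controls declined while BkF rose, so that the fold went from 1.43 at 48 hpf to 2.64 at 96 hpf (1.01 ± 0.39, limma adjusted p = 0.00433). The gene creld2, which encodes an ER-resident protein with EGF-like repeats, had 1568, 1112, 901 and 1096 and 2094, 2234, 2273 and 2178 (0.94 ± 0.38, limma adjusted p = 0.00536). Here BkF was level between 60 and 96 hpf, and the ratio was highest at 72 hpf, when the control was lowest.

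The J-domain co-chaperone gene dnajb11 had 6284, 5203, 4595 and 5278 in controls and 7833, 9188, 9913 and 10942 in BkF (0.82 ± 0.36, limma adjusted p = 0.00656). Its partner gene sdf2l1 had 1113, 1207, 1024 and 1086 and 1436, 1704, 1829 and 2125 (0.67 ± 0.28, limma adjusted p = 0.00723). In both genes every BkF value exceeded every control value. The paralogs dnajc3a and dnajc3b, which encode a co-chaperone that also restrains PERK in mammals, rose by 0.48 ± 0.29 and 0.47 ± 0.27 (limma adjusted p = 0.0213 and 0.0178), with no overlap of the groups. Both lost their calls without the 60 hpf (0.49 and 0.49) or the 72 hpf samples (0.45 and 0.41).

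**Figure D2:**
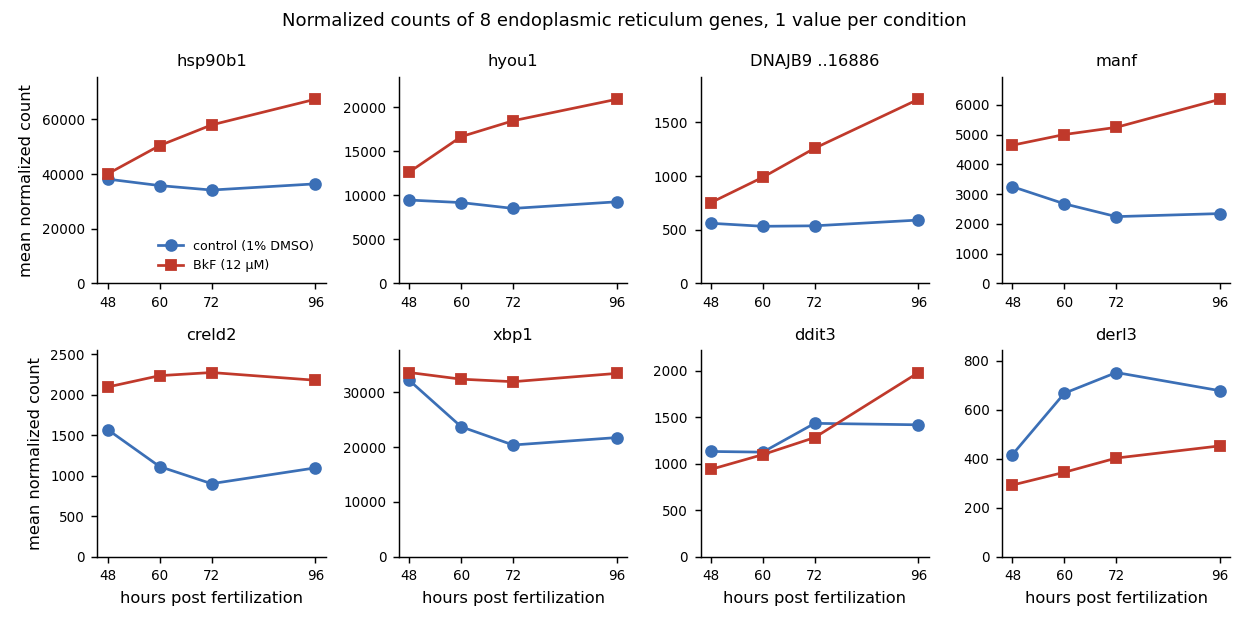
Mean normalized counts (linear axes from 0) of 8 genes against hours post fertilization in control (circles) and BkF (squares), 1 value per condition and so no error bar. The lines of hsp90b1 and xbp1 start close together at 48 hpf and part later, ddit3 crosses over before 96 hpf, and derl3 is lower in BkF throughout.

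Of 6 measured genes of disulfide chemistry 3 rose and 1 fell (50% and 16.7%, beside 16.5% and 17.4% of all genes). The reductase gene dnajc10, which opens disulfides of proteins bound for degradation, had 4100.2, 3891, 3698 and 3826 in controls and 5438, 5649.6, 6229 and 6630 in BkF (0.62 ± 0.18, limma adjusted p = 0.00285). The isomerase gene pdia6 had 9617, 7791, 7936 and 8010.1 and 10206, 11775, 13233 and 16210.4 (0.61 ± 0.39, limma adjusted p = 0.0223), and pdia4 had 14662, 14654, 13029.7 and 14396 and 15033, 19106, 21818 and 23068 (0.46 ± 0.32, limma adjusted p = 0.0321). All 3 kept BkF above control at each time, by little in pdia4 and pdia6 at 48 hpf. The calls of pdia6 and pdia4 were lost without the 60 hpf (0.61 and 0.49) or the 72 hpf samples (0.57 and 0.37), and that of pdia4 also without the 96 hpf samples (0.39).

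The isomerase gene pdia5 had 9089, 6164, 5189 and 5857 in controls and 8443, 7543, 8313 and 9169.6 in BkF, lower than control at 48 hpf and higher afterwards. It did not pass (0.38 ± 0.37, limma adjusted p = 0.0779), except when 48 hpf was left out (0.54) or with every sample scaled to the same total (0.56). The oxidase gene ero1a, which passes oxidizing power to the isomerases, went the other way, with 383, 393, 411 and 414 in controls and 291, 314, 302 and 327 in BkF. Its ratio was nearly the same at each time (-0.38 ± 0.054, limma adjusted p = 0.0154), and the groups did not overlap. Its call was lost without the 60 hpf (-0.39) or the 72 hpf samples (-0.35) and with the same total (-0.19). The pancreatic isomerase gene pdia2 was close to the filter, with control values of 11.7 to 24.3 and BkF values of 6.94 to 17.1, and did not pass (-0.47 ± 0.47, limma adjusted p = 0.279).

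Of genes of ER-associated degradation 3 of 8 rose and 1 fell, with a median effect of 0.19. These are 37.5% and 12.5%, beside 16.5% and 17.4% of all genes. The mannosidase-like gene edem1, which marks misfolded glycoproteins for removal, had 8886, 8501, 8259 and 8311 in controls and 10544, 11424, 11629 and 12873 in BkF (0.45 ± 0.16, limma adjusted p = 0.00592). Its groups did not overlap and its controls were almost flat. The ligase adaptor gene sel1l had 6867, 6449.8, 6302 and 6482 and 7319.7, 7594, 7895 and 8356 (0.26 ± 0.12, limma adjusted p = 0.0221), a small shift with no overlap. The ubiquitin ligase gene syvn1, the partner of sel1l, overlapped between groups and did not pass (0.14 ± 0.17, limma adjusted p = 0.185), except with the same total in every sample (0.33).

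The 3 derlin genes, whose products help to move proteins out across the membrane, were called differently, derl3 lower, derl2 higher and derl1 neither. The gene derl3 had 418, 668, 753 and 678 in controls and 293, 345, 403 and 453 in BkF, lower at each time (-0.74 ± 0.22, limma adjusted p = 0.0043). Its groups overlapped only because the control at 48 hpf was itself low. The gene derl2 had 2322, 2008, 1821 and 1847 and 2372, 2523, 2291 and 2433, overlapping through the 48 hpf control (0.27 ± 0.16, limma adjusted p = 0.034), a call lost when 60, 72 or 96 hpf was left out (0.25, 0.25 and 0.23); derl1 did not pass (0.22 ± 0.16, limma adjusted p = 0.0571). The membrane protein genes herpud1 (0.15 ± 0.14) and selenos (0.14 ± 0.12) did not pass either, and both ranged within 3282 to 5260.2 over all samples. With the same total derl1 (0.41), herpud1 (0.33) and selenos (0.32) passed as higher. The call of sel1l was lost without the 60 hpf (0.26) or the 72 hpf samples (0.23).

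Among sensors and transcription factors 2 of 6 rose (33.3%) and 0 fell by limma, beside 16.5% and 17.4% of all genes. In 1, eif2ak3, the value was lower at an unadjusted p under 0.05. The factor gene atf6 had 5229, 4491, 3873 and 4460.1 in controls and 6694, 6605, 6535 and 6764 in BkF, nearly constant in BkF and with a dip in controls (0.57 ± 0.16, limma adjusted p = 0.00302). The gene xbp1 had 32174, 23712, 20386 and 21745 and 33614, 32399.8, 31940 and 33458 (0.45 ± 0.27, limma adjusted p = 0.0231). Controls declined from their 48 hpf value and BkF hardly moved, so the groups overlapped through the first control alone. The xbp1 call was lost when 60, 72 or 96 hpf was left out (0.44, 0.38 and 0.39). Values per gene do not separate spliced from unspliced xbp1 mRNA.

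The gene of the IRE1 sensor itself, ern1, had 4177, 3925, 3979 and 3814 in controls and 4163, 3991, 3724 and 3591 in BkF, with ratios within -0.10 to 0.024 (-0.041 ± 0.060, limma adjusted p = 0.541). The PERK gene eif2ak3 lay below control at each time but overlapped and did not pass (-0.17 ± 0.11, limma adjusted p = 0.0634), except after quantile normalization (-0.21). With the same total in every sample its difference vanished (0.015). Of the PERK branch factors, atf4b did not pass (0.21 ± 0.17, limma adjusted p = 0.0842), except when 48 hpf was left out (0.29) or at equal totals (0.39). The CHOP gene ddit3 had 1132, 1124, 1434 and 1418 and 939, 1098, 1282 and 1980.5 (0.004 ± 0.33, limma adjusted p = 0.984). It lay below control up to 72 hpf and 1.4-fold of control at 96 hpf, where 1 value per condition allows no test.

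Translocation genes had the smallest median effect of the 6 roles, with 1 of 4 higher, 1 lower and a median of 0.069. That is 25% each way, near the shares of all genes (16.5% and 17.4%) for so few genes. The channel subunit gene sec61g had 18948, 17676, 18187 and 19543 in controls and 17152, 16094, 15124 and 16945 in BkF (-0.19 ± 0.061, limma adjusted p = 0.0316). Its groups did not overlap, but the difference vanished with the same total in every sample (-0.002), and the call was lost without the 60, 72 or 96 hpf samples (-0.20, -0.16 and -0.18). The subunit gene ssr3 of the complex that assists the channel had 13227, 8833, 7645 and 8155 and 14009.8, 11398, 11500.5 and 12606, overlapping since both treatments were lower after 48 hpf than at 48 hpf (0.42 ± 0.25, limma adjusted p = 0.022). That call was lost without the 60 hpf (0.43) or the 72 hpf samples (0.36), and without the time block both the ssr3 call (limma adjusted p = 0.105) and the sec61g call (limma adjusted p = 0.0546) were lost. The genes ssr2 (0.059 ± 0.20, limma adjusted p = 0.611) and sec61b (0.079 ± 0.18, limma adjusted p = 0.452) overlapped between groups and did not pass, the latter except with the same total (0.26).

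The number of calls changed with the times in the fit. Without the 60 or the 72 hpf samples 11 and 11 ER genes were higher, when 7.58% and 8.37% of all genes were. Without the intensity trend 12 were higher, when 12.8% of all genes were. The calls of hsp90b1, calr, pdia4, pdia6, dnajc3a, sel1l, derl2, xbp1, ssr3 and sec61g were then lost, with limma adjusted p of 0.0522 to 0.0724. The genes hspa13, hyou1, canx, DNAJB9 (ENSDARG00000016886), dnajb11, dnajc10, sdf2l1, manf, creld2, edem1 and atf6, 11 in all, were higher under each of the 12 alternatives run on single genes, and derl3 was lower under each. The share of all genes that kept a call under each alternative was not counted, so these numbers have no background beside them. With the same total in every sample the median of all genes moved by 0.18 toward BkF, and 28 ER genes were higher (36.2% of all genes) and 1 lower (9.8% of all genes). Relative to that shift the ER genes had a median of 0.40.

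The increase was small at 48 hpf and larger later. The median log2 ratio of the 37 ER genes was 0.071, 0.37, 0.53 and 0.62 at 48, 60, 72 and 96 hpf, while that of all genes was 0.001, 0.006, 0.001 and -0.013. By role, the medians went from 0.28 to 0.89 between 48 and 96 hpf for chaperones, from 0.34 to 0.98 for co-chaperones and from -0.035 to 0.66 for oxidoreductases. The ratio grew at each of the 3 steps in 20 ER genes, or 54.1%, against 8.82% of all genes. All 5 chaperones were among them, and so was manf, with ratios of 0.52, 0.90, 1.22 and 1.40. In the 9 other gene lists described below, growth at each step was held by 13.5% (heat shock) to 68.2% (collagen folding). It was held by 56.4% of vesicle export and 50% of signal recognition and translocation genes. At least 2-fold higher at the successive times were 0, 1, 5 and 6 ER genes, and 3.64%, 4.2%, 4.88% and 5.29% of all genes. The 6 at 96 hpf were DNAJB9 (ENSDARG00000016886), manf, hyou1, dnajb11, hspa13 and pdia6.

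In the test of a change of the ratio with hpf, a straight line across the 4 times, 0 ER genes passed by limma, as against 0.0137% of all genes. The unadjusted p was under 0.05 for 23 of 37 ER genes (62.2%) and for 16.6% of all genes, and the slope was positive in 35 of 37, against 50.3% of all genes. In the 9 other gene lists the unadjusted p was under 0.05 for 7.89% (other degradation) to 63.6% (collagen folding). Positive slopes there made up 59.5% (heat shock) to 97.4% (vesicle export). Slopes of the 37 ER genes ran from -0.052 (ern1) to 0.54 (DNAJB9, ENSDARG00000016886) log2 per 24 h, with a median of 0.25, and their smallest limma adjusted p was 0.108. Without the 96 hpf samples the slope passed in 19 ER genes, each positive, and in 7.83% of all genes. Among these, pdia5 had 0.79 log2 per 24 h (limma adjusted p = 0.00244), pdia4 0.71 (limma adjusted p = 0.00283) and creld2 0.92 (limma adjusted p = 0.00651). That fit has almost as many terms as values per gene, so its p-values rest largely on the spread that limma shares across genes. Between 72 and 96 hpf the ratio grew in 28 of 37 ER genes, and in 10926 of the 21950 genes tested.

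**Figure D3:**
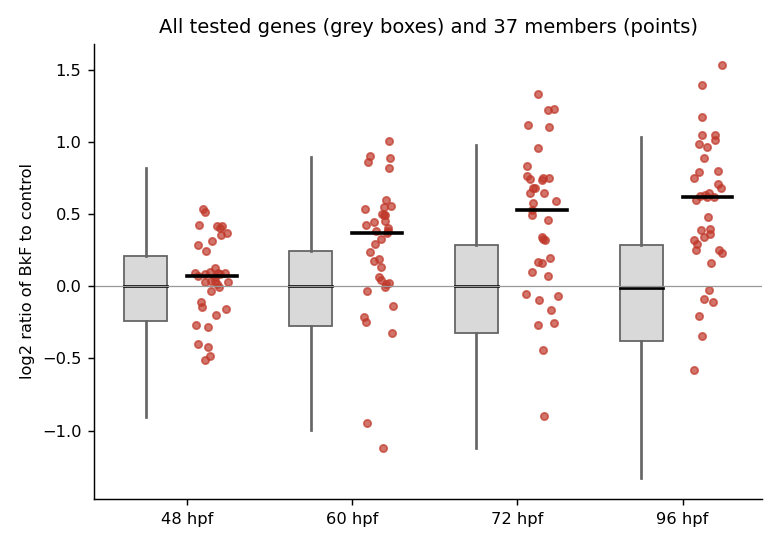
Log2 ratio of BkF to control at each time point, with grey boxes for all 21950 tested genes (quartiles and median, whiskers at the outer 5% on each side) and points for the 37 ER genes with their median as a black line. The ER median moves from 0.071 at 48 hpf to 0.62 at 96 hpf while the median of all genes stays near 0.

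The gap between treatments widened both ways. In controls 27 of 37 ER genes had their highest value at 48 hpf (73%, against 38% of all genes), and the median change from 48 to 96 hpf was -0.13 (log2). In BkF 27 had their highest value at 96 hpf (73%, against 36.2% of all genes), and the median change was 0.29. The 48 hpf peak in controls was held by 95.5% of signal recognition and translocation, 84.6% of vesicle export and 81.8% of collagen folding genes. It was lowest among the 9 other lists in IRE1, ATF6 and related transducers (30.4%). The 96 hpf peak in BkF was held by 40% (other chaperones and oxidoreductases) to 63.6% (signal recognition and translocation) of their genes. The genes hsp90b1, hyou1 and DNAJB9 (ENSDARG00000016886) parted mainly by a climb in BkF, with log2 changes from 48 to 96 hpf of 0.75, 0.72 and 1.19 in BkF and -0.067, -0.031 and 0.075 in controls. The genes xbp1, pdia5 and creld2 parted mainly by a decline in controls, of -0.56, -0.63 and -0.52, with BkF at -0.007, 0.12 and 0.056. A common trend with hpf over both treatments passed in 0 ER genes (limma) and in 0.00456% of all genes. Its unadjusted p was under 0.05 for 4 of 37 ER genes (10.8%) and for 29.2% of all genes. Without the 96 hpf samples it passed in 5, upward in derl3 and ddit3 and downward in ssr2, ssr3 and sec61b, and in 17.9% of all genes.

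Other genes of the same routes moved to differing extents, where 16.5% of all genes tested were called higher and 17.4% lower. In the list of N-glycosylation and glycan trimming, 14 of 42 genes rose (33.3%) and 3 fell (7.14%). The medians were 0.014, 0.19, 0.36 and 0.42 at the successive times. MOGS, the glucosidase gene that starts glycan trimming, had 3969, 2930.4, 2451 and 2758 in controls and 4719.5, 4511, 4739.9 and 5163 in BkF, with no overlap (0.68 ± 0.32, limma adjusted p = 0.00894). The dolichol sugar utilization gene mpdu1a went the other way (-1.62 ± 0.59, limma adjusted p = 0.00338). Of vesicle export genes 10 of 39 rose (25.6%) and 0 fell by limma (0 lower at an unadjusted p under 0.05). Their medians were -0.058, 0.16, 0.30 and 0.42. There the cargo receptor complex gene ERGIC3 rose by 0.58 ± 0.16 (limma adjusted p = 0.00268) and the p24 family gene TMED4 by 0.47 ± 0.17 (limma adjusted p = 0.00984).

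Of signal recognition and translocation genes 7 of 22 rose (31.8%, beside 16.5% of all genes). By limma 0 fell (1 lower at an unadjusted p under 0.05), and the medians were -0.013, 0.13, 0.28 and 0.34. The list was led by the signal peptide peptidase gene HM13 (0.45 ± 0.31) and by GET4 of the tail anchor insertion pathway (0.33 ± 0.11). Of the remaining chaperone and oxidoreductase genes 11 of 35 rose (31.4%) and 2 fell (5.71%), with a median of 0.082. The 11 include GRPEL1 (0.38 ± 0.041), a gene of mitochondria rather than of the ER. The thioredoxin-like gene TXNDC12 had 0.63 ± 0.27 and the vitamin K epoxide reductase relative VKORC1L1 had 0.50 ± 0.070 (limma adjusted p = 0.00797 and 0.00159). Of the remaining degradation genes 11 of 38 rose (28.9%) and 1 fell (2.63%), with a median of 0.11. VCP, the ATPase that pulls proteins out of the ER membrane, had 39244, 31948, 31486 and 32254 in controls and 51354, 52992, 55643 and 64615 in BkF (0.73 ± 0.26, limma adjusted p = 0.00436), while UBXN6, a gene of one of its cofactors, had -0.56 ± 0.18 (limma adjusted p = 0.00401).

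Among genes that fold and modify collagen 0 of 22 rose and 6 fell by limma (0 and 6 at an unadjusted p under 0.05). The share that fell was 27.3%, beside 17.4% of all genes. The medians were -0.36, -0.19, 0.012 and 0.072 at the successive times. SERPINH1 (ENSDARG00000019949), which encodes the collagen chaperone of the ER, had 111177, 60671, 49668 and 68172 in controls and 40179.5, 26322, 25443 and 42489 in BkF, lower at every time and without overlap (-1.08 ± 0.34, limma adjusted p = 0.00263). The collagen crosslinking oxidase gene LOXL2 had 13016, 14878, 19806 and 18385 and 7107, 7138, 7413 and 13313, overlapping through the 96 hpf BkF value (-0.95 ± 0.40, limma adjusted p = 0.00546). Reads of zebrafish paralogs can be shared between their identifiers, and the other SERPINH1 entry, ENSDARG00000075954, had -0.066 ± 0.36 and did not pass.

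In the list of the PERK, ATF4 and integrated stress response 15 of 36 genes rose (41.7%) and 5 fell (13.9%). Of all genes 16.5% rose and 17.4% fell. The medians of the list were 0.055, 0.074, 0.16 and 0.32. PSPH, the last enzyme of serine synthesis, had 1811, 1358, 1053 and 1089 in controls and 7738, 6481, 5677 and 6084 in BkF, with no overlap and an effect of 2.31 ± 0.18 (limma adjusted p = 6.89e-05). PHGDH (-0.004 ± 0.16) and PSAT1 (-0.075 ± 0.20), genes of earlier steps of that synthesis, did not pass (limma adjusted p = 0.97 and 0.51). STC2, a stanniocalcin gene, had 7968, 6499.5, 6982 and 7273 and 2995, 2531, 1643 and 2194 (-1.65 ± 0.34, limma adjusted p = 0.00066), and was lower throughout. Chosen after their values were seen, the stress-induced genes ATF3 (1.22 ± 0.44) and TRIB3 (0.83 ± 0.36) rose (limma adjusted p = 0.00352 and 0.00646), whereas CHAC1, a CHOP and ATF4 target in mammals, did not pass (-0.12 ± 0.52, limma adjusted p = 0.669). In the list of IRE1, ATF6 and related transducers 4 of 23 rose and 4 fell. That is 17.4% each way, near the shares of all genes (16.5% and 17.4%). The ER membrane gene TMEM33 was at 0.59 ± 0.10 and the IRE1 adaptor gene TRAF2 (ENSDARG00000030173) at -0.69 ± 0.19 (limma adjusted p = 0.00123 and 0.00461).

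**Figure D4:**
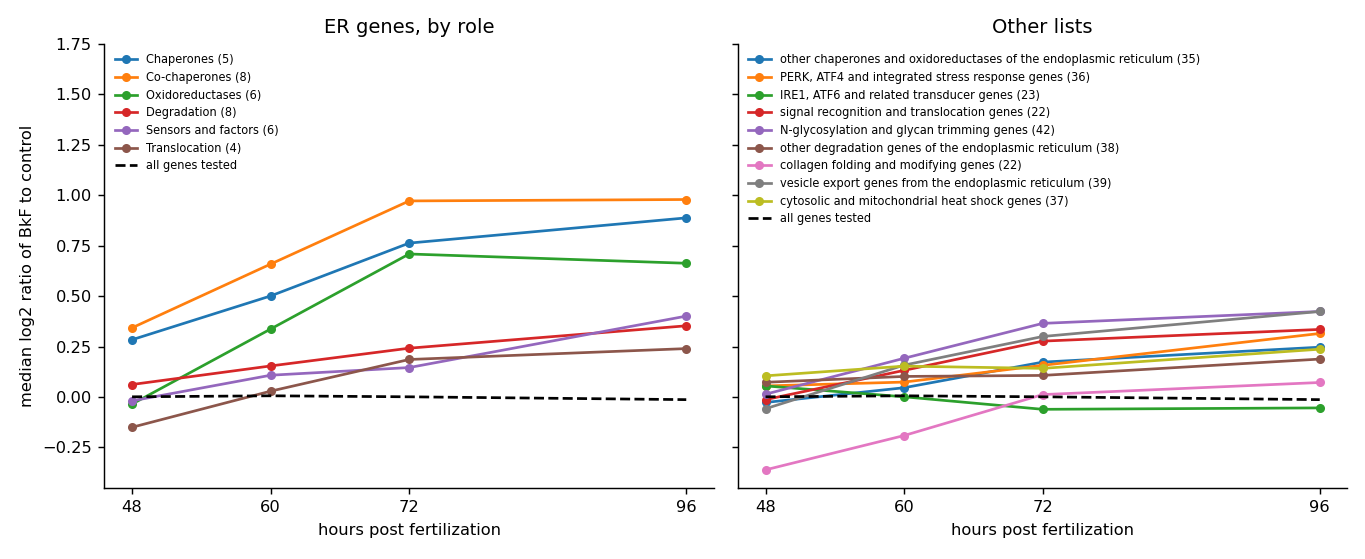
Median log2 ratio of BkF to control against hours post fertilization for the ER genes by role (left) and for other gene lists (right), with the number of genes tested in parentheses and all tested genes as a dashed line. Chaperones and co-chaperones reach 0.89 and 0.98 at 96 hpf, while collagen folding genes start at -0.36 and end at 0.072.

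Markers of several cell types moved with BkF alongside the ER genes, where 16.5% of all genes tested were called higher and 17.4% lower. Of the macrophage and neutrophil markers 5 of 15 rose, 0 fell and 10 were not called. Their median log2 ratios were -0.026, 0.589, 0.604 and 0.713 at 48, 60, 72 and 96 hpf. The summed level was 9938 to 18106 in controls and 23099 to 66103 in BkF. The protease gene MMP9 was a large part of that sum, at 4393 to 7850 and 13369.7 to 36615. The neutrophil lysozyme gene lyz stood at 367 to 3780.4 and 462 to 1672. Of the epidermis and periderm markers 13 of 14 fell and 0 rose, the sums being 6052525 to 7285709 and 1145904 to 2636218. Mucus and goblet cell markers, another secretory type, summed to 8044 to 9684 and 1998 to 8057, with 4 of 6 lower and 0 higher, and notochord markers to 95217 to 118038 and 43299.6 to 95739.5, with 4 of 13 lower and 0 higher. Osteoblast and chondrocyte markers summed to 213775 to 271411 and 76929.9 to 241691 (3 higher and 5 lower of 15). Genes listed as markers of exocrine pancreas, whose cells are rich in ER chaperones, summed to 3460 to 4219.7 in controls and 1669 to 2290 in BkF. Of the 9 tested 4 fell and 1 rose, with median log2 ratios of -0.348, 0.218, -0.223 and -0.439 at the successive times. The trypsin gene prss1 was a small part of the sum, at 10.3 to 29.4 and 20.5 to 25.3. Whether pancreatic cells were in the tissue was not tested. Of fin fold markers 5 of 11 fell and 1 rose. Skeletal muscle had 1 of 14 lower and 3 higher, and the central nervous system 4 of 15 lower and 2 higher. Their median log2 ratios at 48, 60, 72 and 96 hpf were 0.485, 0.462, 0.315 and -0.615, and 0.005, 0.107, 0.309 and -1.087. Those of the notochord markers were -0.173, -0.171, -0.342 and -1.055. At 96 hpf 3, 8 and 7 markers of these 3 lists were at least 2-fold lower and 0, 1 and 0 higher. Among all 21950 genes tested 1909 were lower and 1162 higher by that measure. The part of these cell types in the ER result was not tested.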

How the data were processed

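RNA from distal trunk tissue of zebrafish larvae (stranded mRNA libraries, single-end reads of 100 bp, 32 libraries) was sequenced. The submitters' processing notes list the tools FastQC, Trimmomatic, Salmon and DESeq2 with the build Zv9, without roles or versions. Per the labels, the signal values deposited are the authors' means of normalized counts over 4 replicates. The submitters name them DESeq2 normalized counts, without the settings used. Depth and replicate error are unknown, so counting intervals cannot be had. Reads of near-identical paralogs may be shared between their identifiers. The members and lists were chosen with earlier results of these data known.

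Each gene's log2(value + 1) was fitted with limma 3.58.1 in R 4.3.3 with an intensity trend, over the 21950 genes with a mean of 10 or more. Terms tested, two-sided, were BkF with time point as a block, BkF by hpf with time point as a block, and hpf with treatment as a factor. Benjamini-Hochberg adjusted p under 0.05 counted as a call. For the BkF effect the residual is the change of the ratio between time points. For BkF by hpf it is the departure of the ratio from a straight line. For hpf, fitted without a time block, it is the scatter of values around parallel lines, 1 per treatment. The p-values rest on those spreads and not on differences between pools of animals. Single time points are described by size, 2-fold counting. Symbols came from a table of identifiers, and list members were matched by the same rule as the ER genes. Every matched ER gene is named, and of each other ER list the 2 largest effects past the threshold. Fits were tested on simulated data. Alternatives were a pseudocount of 10, no filter or one at a mean of 50, scaling by quantiles or to equal totals, a constant prior without the intensity trend, a robust one, a fit without the time block, controls alone for the trend, each time point left out, and own symbols alone. Protein ends and promoter motifs, planned at first, are not analysed here. Figures used matplotlib 3.10.9 in Python 3.11.15.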

Additional observations from a re-analysis of the deposited data

Results flagged for a closer look

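In 6 of the 37 ER genes the ratio of BkF to control was below 0 at 48 hpf and above 0 at 96 hpf, as against a change of sign in 30.7% of all genes tested, in either direction. The log2 ratio at 96 hpf exceeded that at 48 hpf by 0.75 for pdia5, by 0.75 for ddit3 and by 0.67 for DNAJB9 (ENSDARG00000052072). It did so by 0.45 for ssr2, 0.39 for sec61b and 0.35 for atf4b. With 1 value per condition the difference between these 2 times was not tested by itself. The straight-line change of the ratio over the 4 times did not pass for any of the 6 (limma adjusted p = 0.17 to 0.342), and without the 96 hpf samples it passed for pdia5, atf4b, sec61b and ssr2.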

How the results depend on the processing

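The count of 21 ER genes higher stayed within 1.5 times of itself except without the intensity trend (12) and without 60 or 72 hpf (11 each). It was 23 without 48 hpf and 16 without 96 hpf, when 15.6% and 15.2% of all genes were higher. The count of 3 lower did so except with the same total (1) and without 60 or 72 hpf (1 each). Without 60 or 72 hpf 8.34% and 8.98% of all genes were lower. Each of those fits without a time point has fewer samples, and the cause of the change without the intensity trend was not tested. Calls of a changing ratio (0 to 19 with time points left out) and of a trend (0 to 5) arose only without the 96 hpf samples, and the cause was not tested. The median effect of the ER genes kept its direction in every alternative, at 0.32 to 0.58. No single gene reversed with a call. Calls of 11 higher genes, 1 lower gene and 5 genes that did not pass were the same under every alternative run on single genes, and the matching share of all genes was not counted. Ratios at single times rest on 1 value per condition. The alternative of no time block was run for the BkF effect alone.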

Other observations

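Heat shock proteins outside the ER had a median effect of 0.12, beside 0.56 for the 5 ER chaperones among the members. The list of 35 other chaperones and oxidoreductases of the ER had a median of 0.082, with 31.4% higher and 5.71% lower. Of the cytosolic and mitochondrial heat shock genes 13 of 37 rose (35.1%) and 2 fell (5.41%), beside 16.5% and 17.4% of all genes. The medians were 0.10, 0.15, 0.14 and 0.24 at 48, 60, 72 and 96 hpf. Whether these genes differ from the ER chaperones was not tested. FKBP5, a glucocorticoid-induced co-chaperone gene, had 872, 6785, 11324 and 10412 in controls and 4252, 12858, 17143 and 28736 in BkF, higher at each time but with overlapping groups because both treatments climbed steeply (1.32 ± 0.74, limma adjusted p = 0.0132). The small heat shock gene hspb6 had 80.9, 204, 436 and 381 and 248, 552, 656 and 999.7, with the same shape (1.25 ± 0.45, limma adjusted p = 0.00424).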
